A study of Mus musculus with 8 samples.

Results

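The genes described here are 9 channels tied to stretch sensing in the bladder, taken by symbol from the 38926 genes counted in each library. They are the Piezo channels Piezo1 and Piezo2, the vanilloid-type TRP channels Trpv1, Trpv2 and Trpv4, the canonical TRP channels Trpc1, Trpc4 and Trpc6, and the melastatin-type channel Trpm4. Their levels were measured by polyA RNA sequencing of whole mouse bladder in 4 NeMO libraries and 4 Sham libraries. NeMO is the submitters' name for a partial obstruction of the mouse bladder outlet that spares the nerves, and Sham animals had a sham operation. The labels give no strain, sex, age or time after surgery, and whether the replicates are separate animals is not stated. The p-values therefore measure only the spread between these samples, which may be technical. The NeMO libraries fell 2 in batch 1 and 2 in batch 2, and the Sham libraries 3 in batch 1 and 1 (replicate 4) in batch 2, according to a mark in the submitted file names.

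Piezo proteins are large channels that open directly when a membrane is stretched and let in calcium and other cations. TRP channels are cation channels that answer to heat, ligands, lipids or calcium, and several of them take part in mechanical responses without being shown to be gated by force themselves. In the bladder, Piezo channels and TRPV4 are known for sensing filling in the urothelium, TRPV1 for its place in sensory nerve endings, and TRPC and TRPM4 channels for the excitability of smooth muscle.

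Library totals ran from 29451800 to 36375313 counts in NeMO and from 27212499 to 33459048 in Sham. Levels are given in CPM, the counts of a gene divided by the library's effective size and expressed per 1000000. The tissue carried the markers of bladder in every library: the summed level of 10 smooth muscle genes was 32065 to 59997 CPM in NeMO and 37615 to 49399.7 in Sham, and that of 12 urothelial genes 6803 to 10059 in NeMO and 8058 to 10612 in Sham. In NeMO, edgeR's quasi-likelihood test found 7 genes that rose and 5 that fell among 16370 tested, at a Benjamini-Hochberg adjusted p under 0.05. That number rested on single libraries. Leaving out NeMO replicate 1 gave 652, NeMO replicate 2 gave 50 and NeMO replicate 3 gave 7. It was 3 without Sham replicate 1, 4 without Sham replicate 2, and 11 without Sham replicate 3. Without NeMO replicate 4 or Sham replicate 4, 0 genes passed in edgeR, with 2549 and 1656 at an unadjusted p under 0.05. DESeq2's Wald test gave 953 genes.

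None of the 9 channel genes passed the threshold in edgeR or in DESeq2. All 9 passed the filter on low counts. Of all genes tested, 0.0733% passed in edgeR (0.0428% higher and 0.0305% lower in NeMO) and 5.82% in DESeq2. At an unadjusted p under 0.05, edgeR had 1 channel gene higher in NeMO (Trpc6) and 1 lower (Trpc4), against 9.38% and 9.14% of all genes tested. DESeq2 had 3 at an unadjusted p under 0.05, these 2 and Piezo2. The 4 NeMO and 4 Sham values overlapped for all 9 channel genes, whereas 8.19% of all genes tested showed no overlap. The median log2 fold change (NeMO minus Sham) of the 9 was 0.03, beside −0.01 over all genes tested, with 5 positive and 4 negative where 48.3% of all genes tested were positive. The single values ran from −0.77 for Trpc4 to 0.99 for Trpc6. In whole tissue, fewer cells of a type and less RNA per cell cannot be told apart.

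**Figure D1:**
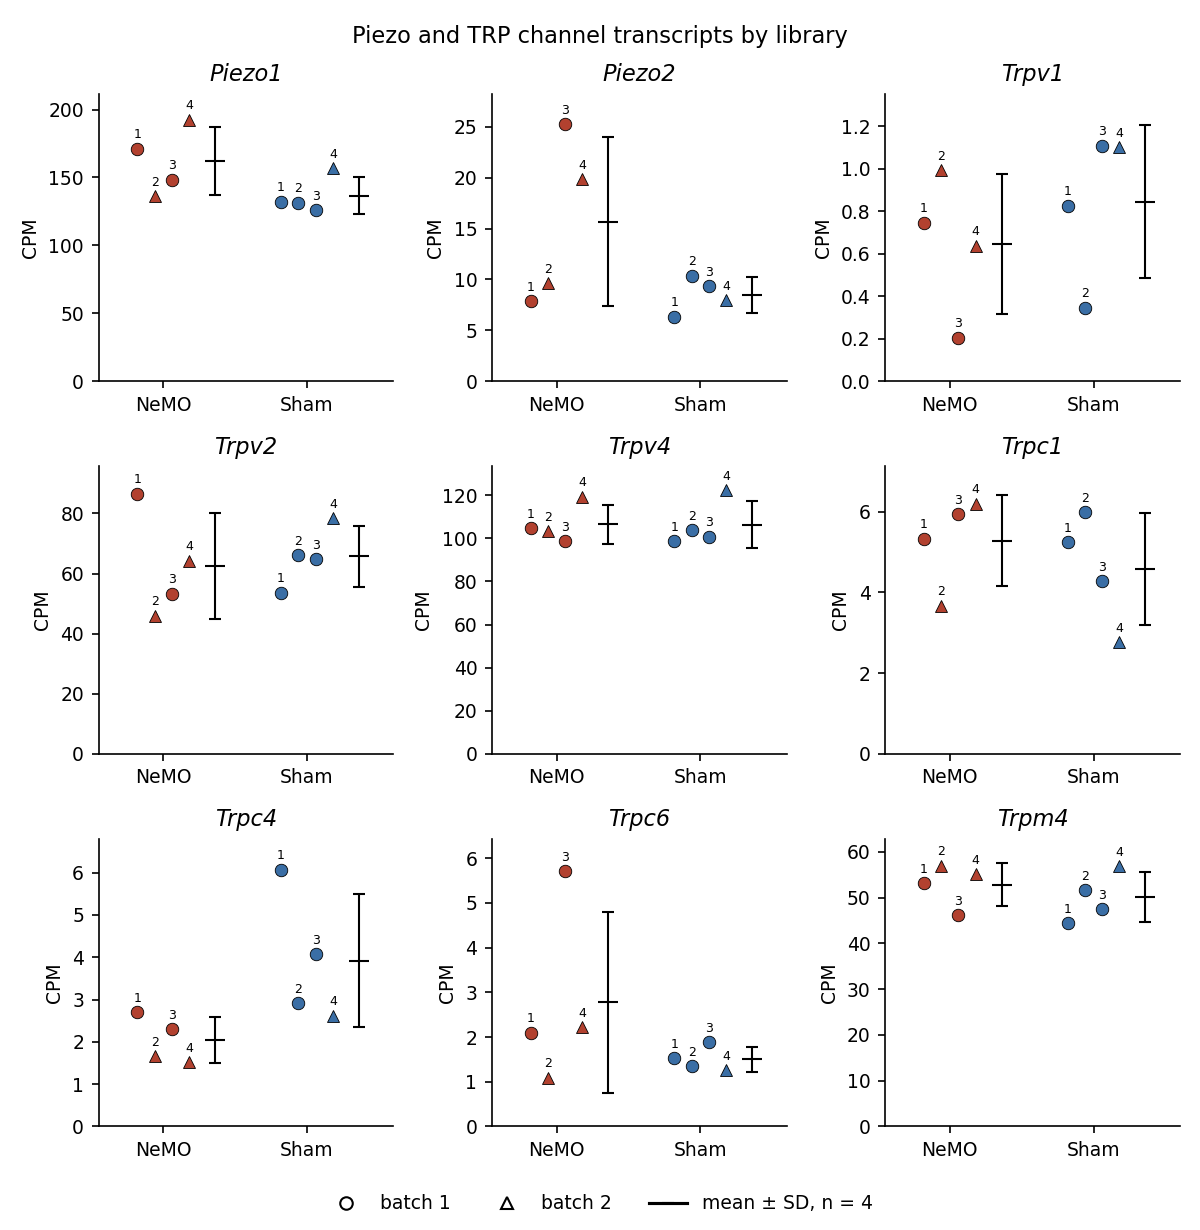
Level of each channel transcript in CPM (vertical axes, each starting at 0) in the 4 NeMO and 4 Sham libraries; numbers are replicates, circles batch 1, triangles batch 2, and bars mean ± SD (n = 4). NeMO replicate 3 is the highest library for Piezo2 (25.2 CPM) and Trpc6 (5.71 CPM), and Sham replicate 1 the highest for Trpc4 (6.07 CPM).

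Levels of different genes can be compared only per length, here as CPM per kilobase of annotated exon. On this scale the most abundant channel transcript was that of Trpv4, a calcium-permeable channel of the urothelium, at 26.1 ± 2.20 in NeMO and 26.1 ± 2.66 in Sham (SD, n = 4 each). Piezo1 followed at 16.3 ± 2.51 in NeMO and 13.7 ± 1.39 in Sham, and Trpv2 at 13.9 ± 3.95 in NeMO and 14.7 ± 2.27 in Sham. Trpm4 came next, at 4.88 ± 0.435 in NeMO and 4.63 ± 0.502 in Sham. Trpv4 was above Piezo1 in 8 of 8 libraries, and Trpm4 was below Trpv2 in 8 of 8. Piezo1 and Trpv2 had no fixed order, since each was the higher one in 4 libraries.

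The other 5 channel transcripts lay below 1.5 CPM per kilobase in every library. Piezo2 measured 0.912 ± 0.483 in NeMO and 0.494 ± 0.101 in Sham, and Trpc1 0.658 ± 0.141 in NeMO and 0.569 ± 0.173 in Sham. Trpc6 measured 0.548 ± 0.398 in NeMO and 0.297 ± 0.0550 in Sham, and Trpc4 0.254 ± 0.0686 in NeMO and 0.488 ± 0.195 in Sham. The ranges of Piezo2, Trpc1, Trpc6 and Trpc4 overlapped over the 8 libraries. Trpv1 was the scarcest, at 0.175 ± 0.0896 in NeMO and 0.230 ± 0.0972 in Sham. Of the summed level of the 9 channels per length, Trpv4 made up 41.1 ± 3.23% in NeMO and 42.6 ± 0.502% in Sham, and Piezo1 made up 25.5 ± 1.31% in NeMO and 22.5 ± 0.958% in Sham. The authors' choice of transcripts for counting is not given in the sources used here. With the longest transcript in place of all exons, Trpm4 would stand at 12.2 in NeMO and 11.6 in Sham, and Trpc4 would stand above Trpc6 on the mean over all libraries.

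**Figure D2:**
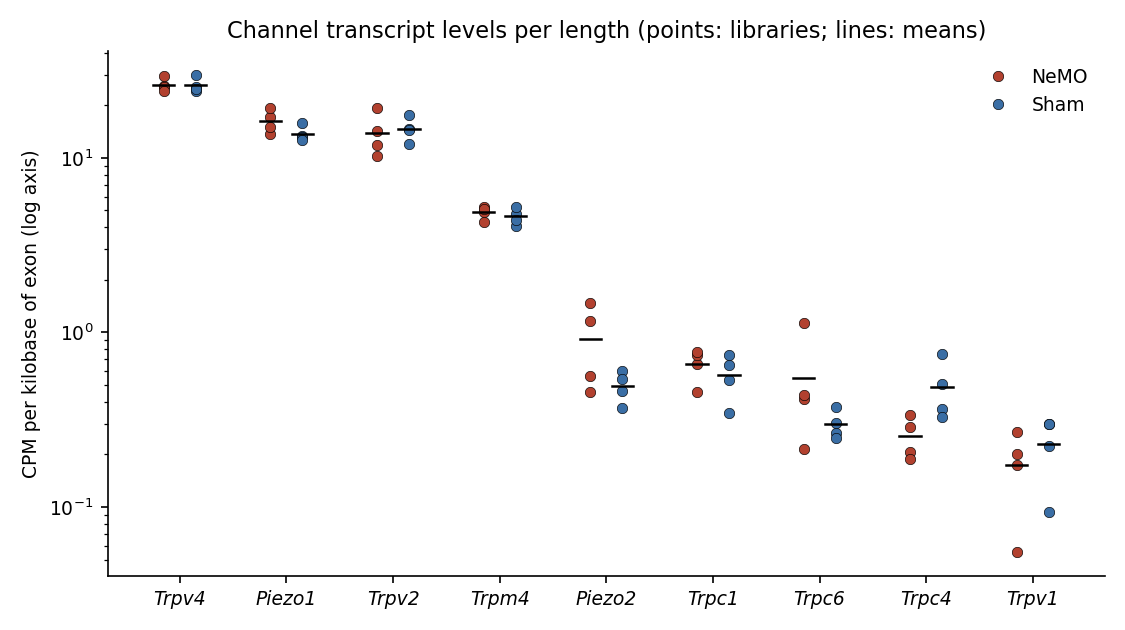
CPM per kilobase of exon (log axis) for the 9 channels, ordered by their mean over all libraries; red points are NeMO libraries, blue points Sham libraries and lines group means. Trpv4, Piezo1, Trpv2 and Trpm4 lie above 4 in every library, and the other 5 channels below 1.5.

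Piezo1 encodes the stretch-gated channel found in urothelium, endothelium and many other cells. It measured 171, 136, 148 and 193 CPM in NeMO replicates 1 to 4, against 132, 131, 126 and 157 CPM in Sham replicates 1 to 4. Both batch 1 NeMO libraries lay above all batch 1 Sham libraries, while in batch 2 the Sham library lay between the 2 NeMO libraries. The mean was 162 ± 24.98 CPM in NeMO and 137 ± 13.8 in Sham (n = 4 each), with a log2 fold change of 0.22 (SE 0.11, 95% interval −0.04 to 0.47, edgeR adjusted p = 0.342). Within batches it was 0.30 (batch 1) and 0.08 (batch 2). Piezo1 has a long transcript (8219 nucleotides in GENCODE, beside a median of 3207 over the genes tested), and long transcripts were relatively higher in NeMO libraries. Across genes, which are not independent replicates, log2 transcript length correlated with how far each gene lay from its mean over libraries, with r of 0.007 to 0.171 in the NeMO libraries and −0.155 to −0.016 in the Sham libraries. After a correction for length and GC content the log2 fold change of Piezo1 was 0.13 (edgeR adjusted p = 0.557). The same correction gave 0.77 for Piezo2, whose transcript of 10724 nucleotides is the longest of the 9 (0.92 before correction). It gave 0.30 for Trpc1, 0.99 for Trpc6 and −0.77 for Trpc4. The part of transcript length in the level of Piezo1 was not tested.

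Piezo1 spans positions 122481698 to 122551329 of chromosome 8 (minus strand, GRCm38), and 2441 of its 9935 exon bases lie opposite exons of Ctu2, a tRNA-modifying enzyme gene on the other strand. Without the strand setting of the counting, reads from those bases cannot be told apart. Ctu2 itself measured 17.7 ± 1.95 CPM in NeMO and 18.1 ± 1.83 in Sham, with a log2 fold change of −0.09 (SE 0.10). No exon of the other 8 channel genes overlaps an exon of another GENCODE gene.

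Piezo2, the touch and proprioception channel of sensory neurons and Merkel cells, is also known from umbrella cells of the bladder. It measured 7.85, 9.64, 25.2 and 19.9 CPM in NeMO replicates 1 to 4, against 6.33, 10.4, 9.31 and 7.94 CPM in Sham replicates 1 to 4. NeMO replicates 3 and 4 lay above all Sham libraries, and NeMO replicates 1 and 2 lay within the Sham range. The log2 fold change was 0.92 (SE 0.40, 95% interval −0.02 to 1.86, edgeR adjusted p = 0.278, DESeq2 adjusted p = 0.0898), with 0.94 in batch 1 and 0.91 in batch 2. Leaving out NeMO replicate 3 gave 0.35, and leaving out NeMO replicate 1 gave 1.26 (edgeR adjusted p = 0.717 and 0.0674). On the log2 scale the SD between libraries was 0.81 in NeMO and 0.31 in Sham.

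Endothelial markers had the same 2 high NeMO libraries as Piezo2. The summed level of 9 endothelial genes was 477, 406, 678 and 575 CPM in NeMO replicates 1 to 4, and 460 to 535 CPM in Sham, and each of the 9 genes was higher in NeMO replicates 3 and 4 than in NeMO replicates 1 and 2. All 9 had a positive log2 fold change, and none passed the test. The order was taken from the Piezo2 values, and its share over all genes tested was not counted. Of the other marker lists, this order held for 4 of 4 lymphatic endothelial, 6 of 9 macrophage, 3 of 5 pericyte, 3 of 5 lymphocyte, 2 of 2 neutrophil and 3 of 9 fibroblast genes, for 1 gene each of the neuronal, mesothelial and striated muscle lists, and for 0 in the rest.

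The fibroblast sum of 9167, 8097, 17618 and 11833 CPM in NeMO, against 9045 to 11852 CPM in Sham, was carried by the collagen genes Col1a1 and Col1a2. Without them it was 4919, 4004, 5239.6 and 4222 CPM in NeMO, against 4261 to 5581 CPM in Sham. Dpt, Pi16 and Fbln1 were lower in NeMO replicate 3 than in the other NeMO libraries. Pdgfra, Dcn, Lum and Mfap5 were higher there than in the other NeMO libraries. The sum of 12 neuronal genes, 189 to 359 CPM in NeMO and 325 to 414 CPM in Sham, was carried by Uchl1. Without it the sum was 16.9, 7.82, 10.7 and 19.4 CPM in NeMO replicates 1 to 4, against 26.6, 6.30, 23.3 and 37.5 CPM in Sham replicates 1 to 4, lowest in replicate 2 of each group. Scn10a, a sodium channel gene of pain-sensing neurons, had 0 counts in all 8 libraries. The part of these cell types in the level of Piezo2 was not tested.

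The vanilloid-type channels showed no difference larger than the spread between libraries. Trpv4 measured 105, 103, 98.6 and 119 CPM in NeMO, against 98.6, 104, 101 and 122 CPM in Sham (replicates 1 to 4). The groups covered almost the same range, and replicate 4, from batch 2, was the highest library in each. The log2 fold change was −0.04 (SE 0.07, edgeR adjusted p = 0.801), and its 95% interval of −0.21 to 0.12 was the narrowest of the 9.

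Trpv2, a channel of macrophages, muscle and other cells, measured 86.6, 46.0, 53.3 and 64.35 CPM in NeMO, against 53.6, 66.1, 64.7 and 78.5 CPM in Sham. NeMO replicate 1 was the highest and NeMO replicate 2 the lowest of the 8 libraries. The log2 fold change was −0.07 (SE 0.21, 95% interval −0.54 to 0.41, edgeR adjusted p = 0.896). Its sign differed between the batches, with 0.18 in batch 1 and −0.50 in batch 2, and without NeMO replicate 1 it was −0.34. The summed level of 10 smooth muscle genes was 59997, 39482, 32065 and 51719.6 CPM in NeMO, against 37615, 44937, 45246 and 49399.7 CPM in Sham. That of 9 macrophage genes was 651, 342, 824 and 669.96 CPM in NeMO, against 992, 716, 754 and 674 CPM in Sham. The smooth muscle sum, like Trpv2, was highest in NeMO replicate 1, and within Sham highest in replicate 4 and lowest in replicate 1. Single genes differed from the sum. Within Sham, Myh11 (12045 CPM), Synpo2 (1160 CPM) and Cald1 (2744 CPM) were lowest in replicate 4, and the other genes of the list were highest there. Over all 8 libraries Acta2 was highest in Sham replicate 4, Actg2 in NeMO replicate 4 and the others in NeMO replicate 1. Within NeMO, smooth muscle genes were lowest in replicate 3 and Trpv2 in replicate 2. The macrophage sum was highest in Sham replicate 1, the lowest Sham library for Trpv2. The part of these cells in the level of Trpv2 was not tested.

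Trpv1, the capsaicin and heat receptor of sensory neurons, had the fewest reads of the 9. It had 26, 30, 7 and 23 reads in NeMO replicates 1 to 4 and 28, 10, 37 and 29 reads in Sham replicates 1 to 4. NeMO replicate 3 and Sham replicate 2 had the fewest. In CPM this was 0.645 ± 0.330 in NeMO and 0.845 ± 0.358 in Sham, with a log2 fold change of −0.59 (SE 0.51, 95% interval −1.73 to 0.55, edgeR adjusted p = 0.572). It ran from −1.08 without NeMO replicate 1 to −0.23 without NeMO replicate 3. All of these values lay within an interval that includes 0. Pirt and Tubb3 were singled out after their values were seen. Pirt, a membrane protein that regulates TRPV1, had its lowest CPM in the same 2 libraries, at 0.437 in NeMO replicate 3 and 0.208 in Sham replicate 2, beside 0.861 to 1.63 in the other NeMO libraries and 1.47 to 2.53 in the other Sham libraries. Tubb3, a neuronal tubulin, measured 0.866 CPM in Sham replicate 2 and 4.88 to 9.46 CPM in the other Sham libraries. In NeMO replicate 3 Tubb3 measured 3.12 CPM, within the NeMO range of 1.39 to 3.74 CPM. Within NeMO, Trpv1 was highest in replicate 2 (0.993 CPM), where Tubb3 (1.39 CPM) and the neuronal sum without Uchl1 (7.82 CPM) were lowest. Within Sham, Trpv1, Tubb3 and that sum were all lowest in replicate 2. The part of neurons in the level of Trpv1 was not tested.

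The canonical TRP channels held the lowest and the highest log2 fold change of the 9. TRPC4 and TRPC6 are receptor-operated cation channels of smooth muscle that open downstream of phospholipase C. Trpc4 measured 2.69, 1.66, 2.30 and 1.52 CPM in NeMO replicates 1 to 4, against 6.07, 2.91, 4.07 and 2.62 CPM in Sham replicates 1 to 4. Within each batch the NeMO libraries lay below all Sham libraries, a pattern that Trpc4 alone showed among the 9 channels and that 18.4% of all genes tested showed in either direction. Over both batches the groups overlapped, because NeMO replicate 1 lay above Sham replicate 4. The mean was 2.04 ± 0.551 CPM in NeMO and 3.92 ± 1.56 in Sham. The log2 fold change of −0.77 (SE 0.26, 95% interval −1.36 to −0.18) did not pass (edgeR adjusted p = 0.177, DESeq2 adjusted p = 0.0856). It was −0.80 in batch 1 and −0.71 in batch 2, and with 1 library left out it ran from −0.91 to −0.58, lying nearest 0 without Sham replicate 1.

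Trpc6 measured 2.09, 1.09, 5.71 and 2.21 CPM in NeMO, against 1.53, 1.35, 1.89 and 1.25 CPM in Sham. NeMO replicate 3 stood far above the others, NeMO replicates 1 and 4 lay just above all Sham libraries, and NeMO replicate 2 was the lowest of the 8. The log2 fold change was 0.99 (SE 0.39, 95% interval 0.12 to 1.87, edgeR adjusted p = 0.225, DESeq2 adjusted p = 0.144). It was 1.30 in batch 1 and 0.41 in batch 2, and 0.40 without NeMO replicate 3 (edgeR adjusted p = 0.650). Trpc6 thus rested on the same library as Piezo2. That library had the highest sums of endothelial, lymphatic endothelial, fibroblast and pericyte markers of all libraries. Without Col1a1 and Col1a2 its fibroblast sum (5239.6 CPM) lay below those of Sham replicates 1 (5581 CPM) and 3 (5435 CPM). Its pericyte sum was 743 CPM, beside 730 CPM in Sham replicate 1. Rgs5, the most abundant pericyte gene, measured 482 CPM there and 526 CPM in Sham replicate 1. The part of these cells in the level of Trpc6 was not tested.

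As the members with the lowest and the highest log2 fold change, Trpc4 and Trpc6 were also set against each other, as reads within each library, a ratio that does not depend on library scaling. The comparison was chosen after the values were seen and is given with no test. Choosing the 2 extremes by itself favours a separation of the groups. There were 0.777, 0.660, 2.48 and 1.46 Trpc6 reads per Trpc4 read in NeMO replicates 1 to 4, against 0.252, 0.464, 0.463 and 0.478 in Sham replicates 1 to 4. All 4 NeMO ratios lay above all 4 Sham ratios, in both batches. The mean was 1.34 ± 0.836 in NeMO and 0.415 ± 0.108 in Sham. Among the 36 ratios that the 9 channels can form, 2 showed no overlap between the groups, this one and that of Piezo1 to Trpc4. Both hold Trpc4, as do 8 of the 36. Among the ratios of all pairs of genes tested, 7.81% showed no overlap. Counts behind the ratio were small, from 50 to 94 Trpc4 reads in NeMO and 69 to 206 in Sham, and from 33 to 196 Trpc6 reads in NeMO and 33 to 63 in Sham.

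**Figure D3:**
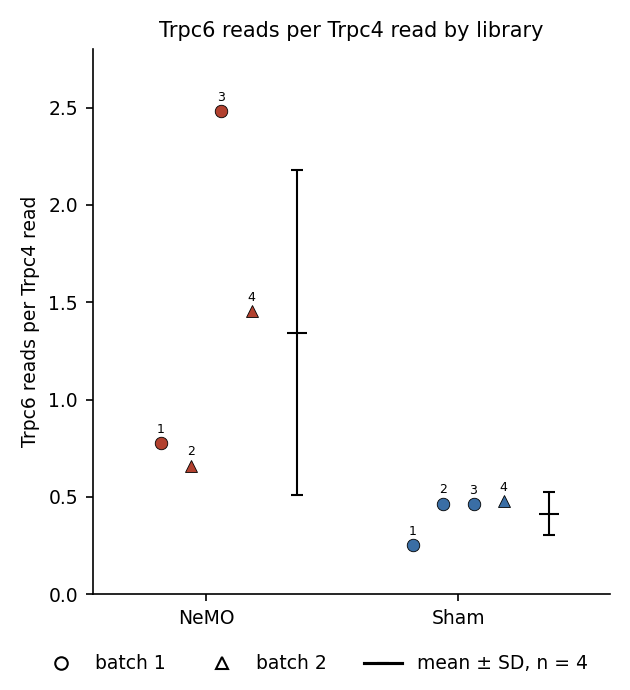
Trpc6 reads per Trpc4 read (vertical axis, starting at 0) in each NeMO and Sham library; numbers are replicates, circles batch 1, triangles batch 2, and bars mean ± SD (n = 4). The NeMO libraries sit between 0.660 and 2.48, all above the Sham libraries, which sit between 0.252 and 0.478.

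The 250 bases before the RefSeq start of these 2 genes are shown because they had the lowest and the highest log2 fold change of the 9. Trpc6 is a known target of the calcineurin-regulated factor NFAT in heart, and serum response factor controls many smooth muscle genes through the CArG box. Both windows were searched on both strands for the NFAT core GGAAA, the TEAD core GGAATG and the CArG box. The sequences are from RefSeq on GRCm38.p6, both on the plus strand, Trpc4 at chr3:54155807-54156056 and Trpc6 at chr9:8543892-8544141, with the matches in capitals.
Trpc4: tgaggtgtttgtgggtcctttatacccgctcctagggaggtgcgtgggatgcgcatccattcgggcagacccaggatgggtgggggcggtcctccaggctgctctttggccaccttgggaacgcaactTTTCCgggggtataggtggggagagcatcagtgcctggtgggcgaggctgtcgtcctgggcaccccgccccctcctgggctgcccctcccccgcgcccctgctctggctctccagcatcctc
Trpc6: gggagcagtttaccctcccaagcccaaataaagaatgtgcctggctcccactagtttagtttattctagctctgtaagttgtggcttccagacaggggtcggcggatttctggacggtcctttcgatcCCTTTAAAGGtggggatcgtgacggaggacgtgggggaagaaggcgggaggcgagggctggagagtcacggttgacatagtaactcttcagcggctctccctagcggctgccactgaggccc
The Trpc4 window held 1 NFAT core, written here as its reverse complement, a motif that 55.6% of all 32851 promoter windows of this length hold. The Trpc6 window held 1 CArG box, which 1.5% of the windows hold, and no NFAT core. Neither window held a TEAD core, which 12.6% hold. A match describes the letters only, and no match says only that these letters are not in the window.

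Trpc1, which joins other TRPC subunits in mixed channels, measured 5.33, 3.68, 5.94 and 6.20 CPM in NeMO, against 5.24, 5.99, 4.28 and 2.77 CPM in Sham. The ranges overlapped, with the batch 2 Sham library the lowest of all. The log2 fold change was 0.36 (SE 0.25, 95% interval −0.19 to 0.91, edgeR adjusted p = 0.464), with 0.13 in batch 1 and 0.84 in batch 2, and 0.13 without Sham replicate 4. Trpm4 encodes a calcium-activated channel that depolarises detrusor muscle. It measured 53.2, 57.0, 46.2 and 55.1 CPM in NeMO, against 44.4, 51.7, 47.5 and 56.9 CPM in Sham. The groups covered the same range, and the log2 fold change was 0.03 (SE 0.08, 95% interval −0.15 to 0.21, edgeR adjusted p = 0.884).

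**Figure D4:**
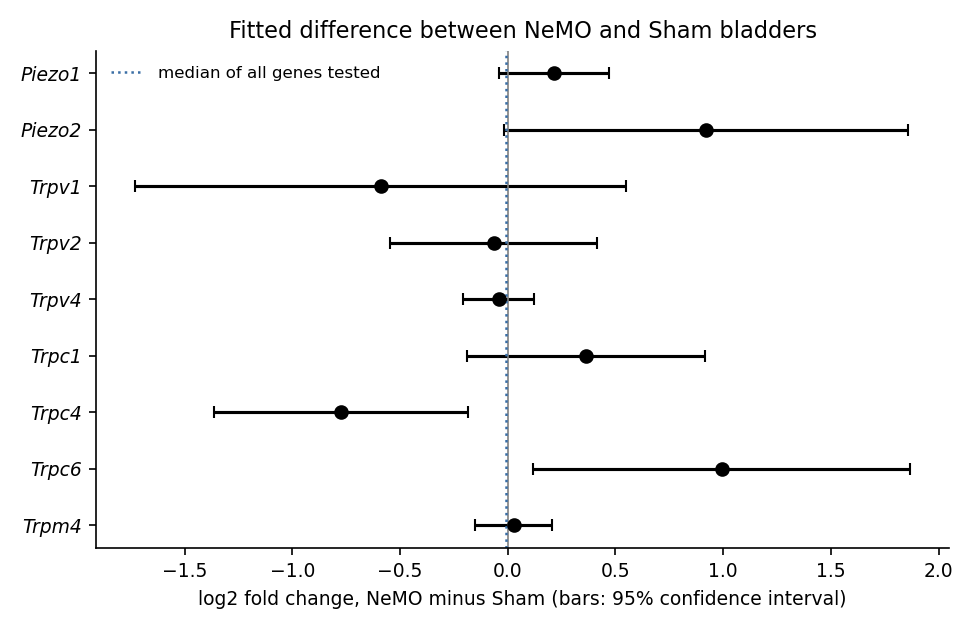
Fitted log2 fold change (NeMO minus Sham, horizontal axis) of each channel gene with its 95% confidence interval; the dotted line is the median of all genes tested. Trpc4 (−0.77) and Trpc6 (0.99) have intervals that leave out 0 before adjustment for the number of genes, and the intervals of Trpv4 and Trpm4 are the narrowest.

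On GRCm38, Trpv1 spans positions 73234292 to 73261242 of chromosome 11 and Trpv2 positions 62574486 to 62600515 of the same chromosome, both on the plus strand. Trpv4 lies on chromosome 5 (114622152 to 114658421, minus strand), Trpc1 on chromosome 9 (95705082 to 95750375, minus strand) and Trpc6 on chromosome 9 (8544142 to 8680741, plus strand). Trpc4 lies on chromosome 3 (54156035 to 54318471, plus strand), Trpm4 on chromosome 7 (45302632 to 45333780, minus strand) and Piezo2 on chromosome 18. All are protein-coding, and with 1 count per symbol the isoforms could not be separated.

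The genes whose log2 CPM followed each channel most closely over the 8 libraries were taken by a rule, as a description with no test. Piezo1 was followed by Adprm (Pearson r = 0.99) and Snd1 (0.97), and Trpv4 by Rnf10 (0.99) and Lrrc14 (0.99). Piezo2 was followed by Egfl7 (0.98) and by Slc17a9 (0.97), the vesicular nucleotide transporter that loads ATP for release. Egfl7 is made by endothelial cells and belongs to the endothelial marker list above, so it is not a separate observation. Trpc6 was followed by Ptprb (0.98), an endothelial receptor phosphatase, and by the collagen VI gene Col6a1 (0.96). Trpv2 was followed by Cygb (0.98) and Mrgprf (0.97), Trpm4 by Dedd2 (0.97) and Osbp (0.95), Trpc1 by Fam126a (0.94) and Mob3c (0.93), and Trpc4 by Bank1 (0.96) and Plk1 (0.96). Egfl7 measured 35.9, 37.7, 55.5 and 53.0 CPM in NeMO replicates 1 to 4 and 36.2 to 42.1 CPM in Sham. With 16370 genes and 8 libraries that share groups and batches, high values of r are common.

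The rest of the TRP family was read as a list of 21 channels, of which 13 passed the filter on low counts. None passed edgeR's test, 2 lay higher and 0 lower at an unadjusted p below 0.05, and DESeq2 had 1 that rose. The median log2 fold change was 0.13. Of all genes tested, 9.38% lay higher and 9.14% lower in edgeR at an unadjusted p under 0.05, and 5.82% passed in DESeq2. These shares stand beside the lists that follow as well. Pkd2, the TRP channel polycystin-2 of cilia and the endoplasmic reticulum, rose in DESeq2 only. It measured 187, 159, 195 and 162 CPM in NeMO, against 150, 154, 164 and 118 CPM in Sham. Its log2 fold change was 0.34 (SE 0.07, edgeR adjusted p = 0.0828, DESeq2 adjusted p = 7.1e-04). Trpm7, a channel fused to a kinase, stood at 0.30 (SE 0.13). Trpa1, the irritant receptor, stood at 2.40 (SE 1.22), with 3.12 CPM in NeMO replicate 3 and 0.029 to 1.09 CPM in the other NeMO libraries, against 0 to 0.450 CPM in Sham.

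Other channels reported to be mechanically gated were a list of 20, with 15 tested. Of these, 0 passed edgeR or DESeq2 (at an unadjusted p under 0.05 in edgeR, 1 lay higher and 1 lower), and the median was −0.04. Pkd1, the membrane partner of polycystin-2, measured 314 ± 33.2 CPM in NeMO and 262 ± 11.1 in Sham, a log2 fold change of 0.28 (SE 0.09, edgeR adjusted p = 0.152). The epithelial sodium channel gene Scnn1b stood at −0.27 (SE 0.12) and Tmc7 at 0.22 (SE 0.11). Tmc4, the second most abundant of the list, stood at −0.04 (SE 0.09).

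Proteins that bind or regulate Piezo and TRP channels were a list of 21, with 20 tested and a median of −0.08. In edgeR 0 passed (at an unadjusted p under 0.05, 0 lay higher and 1 lower), and in DESeq2 1 fell. That gene was Fkbp4, an immunophilin that binds TRPC channels, at 168 ± 19.5 CPM in NeMO and 203 ± 46.4 in Sham, a log2 fold change of −0.36 (SE 0.09, edgeR adjusted p = 0.104, DESeq2 adjusted p = 0.0165). The related immunophilin Fkbp1a stood at −0.24 (SE 0.11) and the calmodulin gene Calm3 at −0.16 (SE 0.08). The most abundant members were Cav1, the caveolin that scaffolds several TRP channels (0.23, SE 0.16), and the calcium pump gene Atp2a2 (−0.12, SE 0.18).

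Receptors and phospholipase C enzymes that feed TRPC channels were a list of 22, all tested, with a median of 0.06. In edgeR 0 passed (at an unadjusted p under 0.05, 2 lay higher and 1 lower), and in DESeq2 1 rose. That gene was F2r, the thrombin receptor PAR1, at 28.7, 18.2, 38.7 and 32.6 CPM in NeMO, against 22.9, 18.2, 18.8 and 15.7 CPM in Sham. Its log2 fold change was 0.73 (SE 0.19, edgeR adjusted p = 0.121, DESeq2 adjusted p = 0.00896). NeMO replicate 2 lay within the Sham range, and the other NeMO libraries lay above it. The G protein gene Gnaq stood at 0.25 (SE 0.08) and Plcb4, the most abundant of the list, at 0.02 (SE 0.19).

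Genes of calcium stores and store-operated entry were a list of 12, all tested, with a median of 0.00. In edgeR 0 passed (at an unadjusted p under 0.05, 1 lay higher and 2 lower), while in DESeq2 1 rose and 1 fell. Itpr1, the main inositol trisphosphate receptor of smooth muscle, measured 315, 318, 312 and 312 CPM in NeMO, against 265, 281, 274 and 262 CPM in Sham, with no overlap and a log2 fold change of 0.22 (SE 0.07, edgeR adjusted p = 0.149, DESeq2 adjusted p = 0.0126). Ryr2, a ryanodine receptor, measured 5.59, 4.83, 1.98 and 2.88 CPM in NeMO, against 11.99, 6.20, 8.11 and 9.04 CPM in Sham, also with no overlap and with a log2 fold change of −1.22 (SE 0.36, edgeR adjusted p = 0.145, DESeq2 adjusted p = 0.0144). Saraf, the brake on store-operated entry, was counted under the symbol Tmem66 and stood at −0.18 (SE 0.07). It was the third gene of the list without overlap, a trait of 8.19% of all genes tested. Itpr3, which is abundant in epithelia, stood at −0.09 (SE 0.07).

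Calcineurin and NFAT genes, which read calcium entry, were a list of 11, all tested, with a median of 0.15. In edgeR 0 passed. At an unadjusted p under 0.05 in edgeR, 3 lay higher and 0 lower, against 9.38% and 9.14% of all genes tested. In DESeq2, where 5.82% of all genes tested passed, 1 rose. That gene was Nfatc3, at 78.8 ± 7.14 CPM in NeMO and 68.4 ± 1.74 in Sham, a log2 fold change of 0.24 (SE 0.06, edgeR adjusted p = 0.122, DESeq2 adjusted p = 0.0318). Nfatc4 stood at 0.26 (SE 0.11), Nfat5, which answers to osmotic stress, at 0.25 (SE 0.11), and the calcineurin gene Ppp3ca at 0.26 (SE 0.13). Genes of ATP release and sensing were a list of 14, with 13 tested and a median of 0.07. There 0 passed in either tool (at an unadjusted p under 0.05 in edgeR, 2 lay higher and 1 lower). Entpd2, an ATP-cleaving enzyme, measured 43.6 ± 1.82 CPM in NeMO and 51.2 ± 1.84 in Sham. It showed no overlap, as did 8.19% of all genes tested, and its log2 fold change was −0.24 (SE 0.07, edgeR adjusted p = 0.135). The ATP-gated channel gene P2rx7 stood at 0.26 (SE 0.11), Gjb2 at 0.54 (SE 0.24), and the abundant members Entpd1 and Entpd3 at 0.07 (SE 0.12) and 0.03 (SE 0.10).

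Without NeMO replicate 1, 4 genes of these lists passed edgeR's test, namely Pkd2, Fkbp4, Ryr2 and the muscarinic receptor gene Chrm2 (log2 fold change −0.81 there, edgeR adjusted p = 0.0267). The number was 0 with any other library left out. Of the marker lists, mast cell genes separated the groups, with a summed level of 19.5 to 63.3 CPM in NeMO and 8.47 to 12.6 CPM in Sham, and adipocyte genes had 0 of 6 members positive, with a summed level of 245 to 638 CPM in NeMO and 605 to 1471 CPM in Sham. Urothelial genes had 2 of 12 positive (median −0.29) and smooth muscle genes 5 of 10 (median 0.02). Positive members numbered 4 of 5 for pericytes, 3 of 5 for interstitial cells, 3 of 4 for lymphatic endothelium, 2 of 2 for neutrophils, 2 of 4 for mesothelium and 2 of 5 for lymphocytes. They numbered 1 of 7 for Schwann cells, 1 of 5 for striated muscle, and 0 of 9, 0 of 8 and 0 of 5 for macrophages, neurons and erythroid cells. No marker gene passed edgeR's test. In DESeq2, 8 of 110 marker genes tested rose, namely all 5 of mast cells and 1 each of lymphatic endothelium, pericytes and Schwann cells. Another 8 fell, namely 4 of urothelium and 1 each of fibroblasts, neurons, mesothelium and adipocytes. Of all 16370 genes tested, 543 rose and 410 fell in DESeq2 (5.82%), and 48.3% had a positive log2 fold change in edgeR. The part of cell composition in the levels of the channel genes was not tested.

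**Figure D5:**
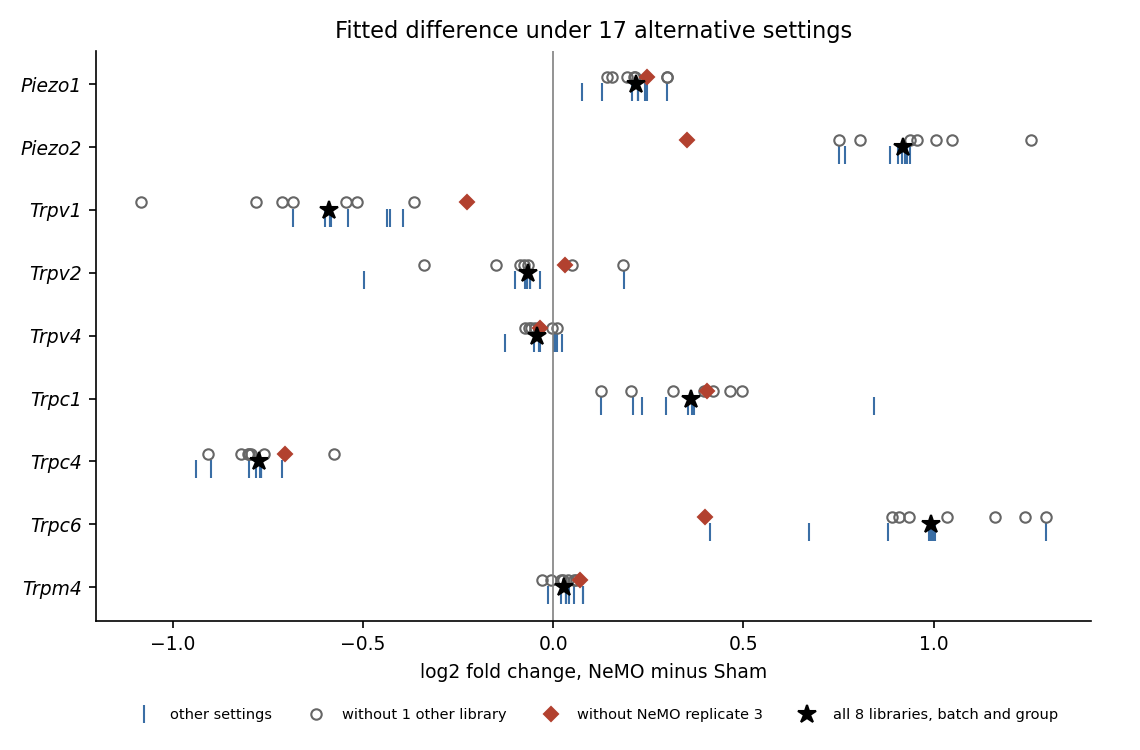
Log2 fold change (NeMO minus Sham, horizontal axis) of each channel gene with all 8 libraries (star), without 1 library (circles, with NeMO replicate 3 as a diamond) and under other settings (ticks). Without NeMO replicate 3, Piezo2 stands at 0.35 and Trpc6 at 0.40, while Trpc4 stays between −0.94 and −0.58 under all 17 alternatives.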

How the data were processed

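Bladder RNA of 4 NeMO and 4 Sham libraries was made into directional polyA libraries and sequenced as single-end reads, per the labels' protocols. The authors deposited raw read counts for each gene symbol, with a separate file for every library. Trimmomatic, STAR, featureCounts, DESeq2 and mm10 appear in the submitters' processing notes without versions. The annotation, the strand setting and the handling of multimapping reads are not given in the sources used.

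The deposited counts were analysed unchanged with edgeR 4.0.16 and, as an alternative, DESeq2 1.42.0 (R 4.3.3). Genes passing filterByExpr (minimum count 10) were scaled by TMM and tested with edgeR's robust quasi-likelihood test in a model of group and batch. Tests were two-sided, and p-values were adjusted by Benjamini-Hochberg across the 16370 genes (threshold 0.05). Log2 CPM used a prior count of 2. Library totals of 27212499 to 36375313 counts set the sampling noise. Replicate libraries differed by more than sampling noise. The test was checked on simulated data, over genes of all levels. It found 22.4% of genes changed by a log2 value of 0.5, 79.1% at 1 and 92.4% at 2. A channel gene that did not pass is therefore not shown to be unchanged. Lengths and positions come from GENCODE M21 (GRCm38), which gave a length for 98.96% of genes.

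The channels and lists were chosen with earlier results of these data known. The naming rule takes every channel, 3 genes of smallest p and 2 of highest CPM per related list, the most abundant gene per marker list (17 lists), and 2 genes most like each channel of at least 1 CPM, without gene models and pseudogenes. Ctu2, Pirt, Tubb3, Scn10a, Chrm2, Col1a1, Dpt, Pi16, Fbln1, Pdgfra, Dcn, Lum and Mfap5 fall outside it and were named after their values were seen. 1 gene that the rule names is not reported here. Alternatives were other scalings, filters, tools and terms, single batches, a length and GC correction, and leaving out each library. A change of sign was counted as a reversal only where at least 1 of the 2 fits had an unadjusted p under 0.05.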

Additional observations from a re-analysis of the deposited data

Results flagged for a closer look

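Of 142 group values checked over the 71 genes named by rule, 13 (9.15%) had 1 library far from the other 3 of its group. Chance flags about 1 in 20. None was a value of the 9 channels. In NeMO, Trpm7 was lowest in replicate 4 (84.5 CPM, others 113 to 116), Gnaq lowest in replicate 4 (167 CPM, others 198 to 204), Nfatc4 lowest in replicate 2 (51.8 CPM, others 70.5 to 71.9) and Acta1, an actin gene of striated muscle, lowest in replicate 2 (579.97 CPM, others 988 to 1062). In Sham, replicate 4 stood apart for 5 genes. Scnn1b (27.9 CPM, others 25.2 to 25.6), Snd1 (187 CPM, others 142 to 148) and Rnf10 (362 CPM, others 285 to 292) were highest there, and Gnaq (149 CPM, others 173 to 176) and Mob3c (14.1 CPM, others 19.1 to 20.03) were lowest there. Sham replicate 4 is the 1 Sham library of batch 2. Sham replicate 3 was highest for Entpd1 (197 CPM, others 156 to 162) and for the smooth muscle myosin gene Myh11 (14546 CPM, others 12045 to 12223). Sham replicate 1 was highest for the macrophage gene Lyz2 (377 CPM, others 248 to 267) and the lymphocyte gene Nkg7 (6.30 CPM, others 1.02 to 1.75).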

How the results depend on the processing

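No channel gene passed the threshold under any of the 17 alternatives, and the median of the 9 stayed within −0.03 to 0.13. Of 153 comparisons of a channel with an alternative, 12 changed sign, all for Trpv2, Trpv4 or Trpm4. Genes past the threshold numbered 953 with DESeq2, 172 without a filter on low counts, 7 without the batch term, 0 in batch 1 alone (1756 in edgeR at an unadjusted p under 0.05), 7 in batch 2 alone, and 0 to 652 with 1 library left out. Related list genes past the threshold numbered 6 with DESeq2 and 0 to 4 with 1 library left out. With the replicate number as a block in place of batch, 0 genes passed (2648 in edgeR at an unadjusted p under 0.05). Same-numbered libraries deviated together with correlations of −0.01 to 0.32, and 4 of 8 libraries correlated best with their own number, so the numbers are not known to pair the samples. Per length of the longest transcript, levels were 19.7 in NeMO and 16.6 in Sham for Piezo1, 1.46 and 0.791 for Piezo2, 33.0 and 32.9 for Trpv4, 1.16 and 1.00 for Trpc1, 0.588 and 1.13 for Trpc4, and 12.2 and 11.6 for Trpm4 (NeMO, then Sham), and in Sham 17.9 for Trpv2 and 0.462 for Trpc6. The causes were not tested. At 1 CPM a library had 26.3 to 36.1 reads, which limits Trpv1, Trpc4 and Trpc6.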

Other observations

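The promoter windows of 5 other channel genes were searched for the same 3 motifs in RefSeq. Trpv1 held 1 CArG box and 2 NFAT cores. Piezo1, Trpv4 and Trpc1 held none of the 3. Of 3 windows listed for Trpv2, 1 held an NFAT core and a TEAD core. These are descriptions of letters, and no motif was set against the fold changes.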
